A study of Mus musculus with 16 samples.

Results

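The mitosis and kinetochore genes described here are 47 listed genes whose products build the spindle, attach chromosomes to it, police that attachment and split the cell. They were chosen by symbol, with earlier results of these data known. Counts of called members set beside all genes therefore describe the list and are no test of it. The brightest probe set that carries a single gene symbol was taken for each gene. Of the 47, 46 were found among the 22180 genes named on these arrays; Ccnb1 was not matched. They were followed in regulatory T cells (Treg cells, the Foxp3-expressing CD4+ cells that restrain immune responses) in 4 groups of 4 arrays. All cells came from C57BL/6 mice that carry a Cre recombinase expressed with Foxp3, so that floxed Atg7 is deleted in Foxp3-expressing cells. Atg7 encodes an enzyme needed to form autophagosomes. In the controls 1 Atg7 allele was floxed and 1 intact (Atg7+/fl Foxp3-Cre, Atg7+/-), and in the other genotype both alleles were floxed (Atg7fl/fl Foxp3-Cre, Atg7-/-). Of each genotype, 1 group was untreated and 1 was given rapamycin, an inhibitor of the kinase mTOR, at 4 mg per kg body weight into the peritoneum each day for 5 days. No vehicle injection of the untreated mice is described, and the ages of the mice are not given. Spleens and peripheral lymph nodes gave the cells, sorted as CD4+ and positive for Foxp3-YFP, and all 16 samples were stimulated for 4 h on plates coated with antibodies to CD3 and CD28.

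A cell that enters mitosis activates the kinase Cdk1 with cyclins A and B, builds a bipolar spindle with the help of kinesin motors, and holds chromosomes to microtubules through the kinetochore, a protein assembly on the centromere. The spindle checkpoint keeps the anaphase-promoting complex silent until every kinetochore is attached, and the chromosomal passenger complex corrects faulty attachments and later guides cytokinesis. The transcripts of these genes rise in G2 and M phase, and in T cells they are low at rest and accumulate after activation, so they are widely read as a measure of how much of a population is dividing. In bulk RNA from sorted cells, more cells in division and more of a transcript per dividing cell cannot be told apart.

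Many genes of this kind share promoter elements. The cell cycle genes homology region (CHR), bound by the DREAM and MuvB complexes, was searched as TTTGAA, and the box bound by the factor NF-Y as CCAAT, both on either strand (TTCAAA and ATTGG are the reverse complements). In RefSeq's promoter windows of GRCm38.p6, from 250 bases before to 50 after each annotated start, 39 of the 47 genes have an entry, in 43 windows; the other 8 have none in the table used. The CHR letters occurred in 30 of those 39 genes (76.9%), against 20.2% of all 27025 genes and 17.9% of all 32851 windows in the table. The NF-Y letters also occurred in 30 of the 39 (76.9%), against 41.1% of all genes and 37.4% of all windows. Both were present in 25 of the 39 genes and in 8.97% of all genes. In 1 pair of matches, in Cdca8, the 2 motifs shared bases. A match is a description of these letters and not of binding.

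Promoter stretches from 170 bases before to 30 after the start are shown for members whose array values the results below turn on, 5′ to 3′ on the gene's strand, with the CHR and NF-Y letters in capitals. Kif11 (chr19:37376212-37376411, + strand), Mki67 (chr7:135716350-135716549, - strand), Top2a (chr11:99024160-99024359, - strand) and Ube2c (chr2:164769759-164769958, + strand) are members with large differences between groups and with both motifs.
Kif11: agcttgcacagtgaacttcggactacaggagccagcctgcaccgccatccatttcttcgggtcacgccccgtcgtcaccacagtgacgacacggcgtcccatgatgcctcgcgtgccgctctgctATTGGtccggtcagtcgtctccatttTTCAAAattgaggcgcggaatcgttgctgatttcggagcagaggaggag
Mki67: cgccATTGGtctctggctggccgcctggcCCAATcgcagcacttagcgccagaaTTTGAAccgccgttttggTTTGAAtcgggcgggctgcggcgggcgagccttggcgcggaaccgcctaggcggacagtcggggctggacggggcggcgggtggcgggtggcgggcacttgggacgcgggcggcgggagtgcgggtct
Top2a: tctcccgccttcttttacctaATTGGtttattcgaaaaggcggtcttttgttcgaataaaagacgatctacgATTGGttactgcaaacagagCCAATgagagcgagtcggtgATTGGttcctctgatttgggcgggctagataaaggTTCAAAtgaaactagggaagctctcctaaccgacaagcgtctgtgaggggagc
Ube2c: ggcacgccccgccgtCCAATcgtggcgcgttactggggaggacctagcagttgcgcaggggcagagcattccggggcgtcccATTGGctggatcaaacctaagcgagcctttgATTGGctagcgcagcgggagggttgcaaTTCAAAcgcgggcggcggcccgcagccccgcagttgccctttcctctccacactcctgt

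Nuf2 (chr1:169531435-169531634, - strand) and Birc5 (chr11:117849067-117849266, + strand) had differences as large, and neither motif's letters are in their windows. Cdc20 (chr4:118437314-118437513, - strand) and Cenpa (chr5:30666716-30666915, + strand) hold both motifs and passed the test in none of the comparisons.
Nuf2: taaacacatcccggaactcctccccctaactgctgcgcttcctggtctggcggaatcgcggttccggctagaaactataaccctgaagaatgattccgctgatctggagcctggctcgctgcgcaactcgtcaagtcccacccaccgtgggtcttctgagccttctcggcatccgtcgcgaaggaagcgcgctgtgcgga
Birc5: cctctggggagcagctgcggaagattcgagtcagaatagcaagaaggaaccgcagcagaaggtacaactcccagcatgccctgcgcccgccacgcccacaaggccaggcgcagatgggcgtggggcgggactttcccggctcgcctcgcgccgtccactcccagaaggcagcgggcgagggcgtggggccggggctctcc
Cdc20: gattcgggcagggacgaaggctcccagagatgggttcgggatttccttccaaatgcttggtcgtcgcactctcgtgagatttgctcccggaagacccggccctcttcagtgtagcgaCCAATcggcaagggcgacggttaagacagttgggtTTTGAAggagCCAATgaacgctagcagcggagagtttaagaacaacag
Cenpa: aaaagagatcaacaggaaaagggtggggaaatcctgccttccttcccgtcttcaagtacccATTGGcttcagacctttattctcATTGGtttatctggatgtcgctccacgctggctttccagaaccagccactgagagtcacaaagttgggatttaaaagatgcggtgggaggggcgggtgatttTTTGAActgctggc

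In the windows of the listed genes the CHR letters lay close to the start. Of 42 matches, 35 began at or after 100 bases before it, and the median distance was -1.5 bases. The plot of match positions sets them beside those of all other genes. Between 0 and 25 bases after the start, the members had 14 matches in 43 windows, or 32.6 per 100 windows, and other genes had 1.27 per 100. The CHR letters were found in 12 of the 17 members with an entry that were called higher in untreated Atg7-/- cells, and in 17 of the 20 that were tested and not called. For the NF-Y letters these counts were 10 of 17 and 18 of 20.

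**Figure D1:**
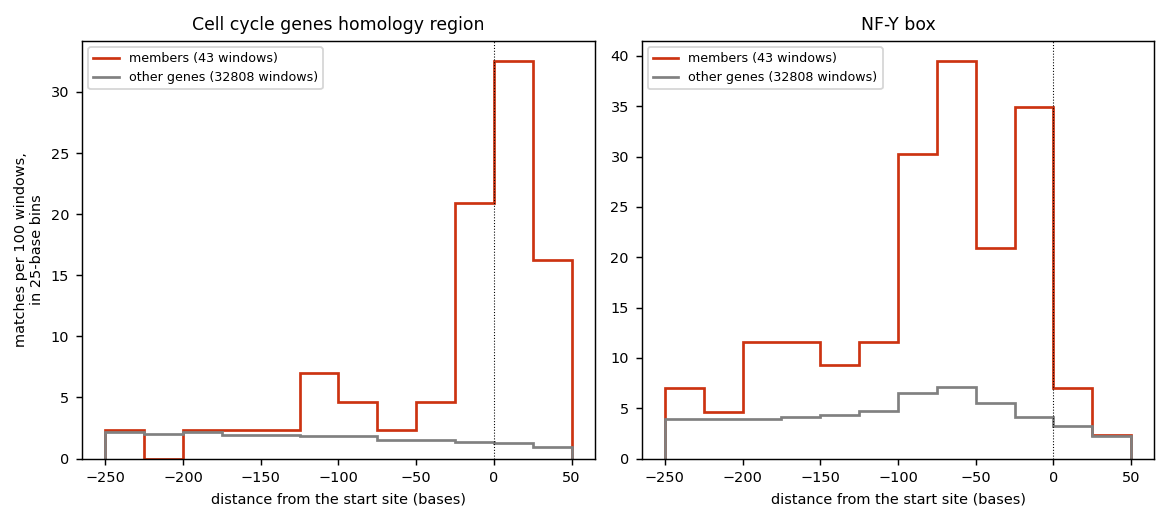
Matches of the CHR letters (left) and the NF-Y letters (right) per 100 promoter windows, in bins of 25 bases, against the distance from the annotated start in bases; the red line is the members (43 windows) and the grey line all other genes (32808 windows), and the dotted line marks the start. In the bin from 0 to 25 the members reach 32.6 CHR matches per 100 windows and other genes 1.27.

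The deposited values are on a log scale taken as log2, and values of different probe sets are not compared here. Arrays of a group correlated at 0.9801 to 0.9939 over the 16760 genes bright enough to be tested. The labels do not say whether the 4 samples of a group came from separate mice, so the p-values speak for the spread among these 16 samples alone, and that spread may be technical. The Atg7 probe set read 6.59 to 6.74 in untreated Atg7+/-, 6.05 to 6.62 in untreated Atg7-/-, 6.67 to 6.85 in rapamycin Atg7+/- and 6.02 to 6.73 in rapamycin Atg7-/- cells, without a called difference between the genotypes (untreated -0.28, SE 0.134, adjusted p = 0.299); where it lies relative to the floxed part is not given, so it does not check the deletion. Foxp3 read 11.24 to 11.32 in untreated Atg7+/-, 10.53 to 11.04 in untreated Atg7-/-, 11.21 to 11.46 in rapamycin Atg7+/- and 10.84 to 11.07 in rapamycin Atg7-/- cells and was lower in untreated Atg7-/- cells by a log2 difference of -0.40 (SE 0.101, adjusted p = 0.0355). All 9 Treg markers and all 6 measured T cell markers of 8 listed were above the filter on dim genes. Of the markers of other cell types, Ms4a1 (B cells), Itgam (myeloid cells) and Klre1 (natural killer cells) were below that filter, and 6 of 7 measured B cell, 9 of 10 myeloid, 6 of 7 CD8 and natural killer cell, 7 of 7 germinal centre and plasma cell and 3 of 3 erythroid markers passed it. The germinal centre and plasma cell markers had a summed linear signal of 2513 to 2835 in untreated Atg7+/-, 2521 to 2981 in untreated Atg7-/-, 2654 to 2851 in rapamycin Atg7+/- and 2908 to 2989 in rapamycin Atg7-/- cells. Those measured were Bcl6, Mzb1, Jchain, Sdc1, Xbp1, Irf4 and Prdm1, and whether their signal came from Treg cells or from other cells was not tested. The array of rapamycin Atg7-/- replicate 1 stood apart within its group for the genes of interest. Its effect is given beside some of the results it touches and not beside all.

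The mean log2 signal over the 46 measured genes shows how the groups lie. It was 4.93, 4.88, 4.95 and 4.80 on the 4 untreated Atg7+/- arrays, 5.41, 5.43, 5.44 and 5.56 on the untreated Atg7-/- arrays, 4.97, 4.80, 4.81 and 4.91 on the rapamycin Atg7+/- arrays and 4.75, 5.16, 5.16 and 5.09 on the rapamycin Atg7-/- arrays. Every untreated Atg7-/- array was above every array of the other groups. The group means were 4.89 ± 0.0642, 5.46 ± 0.0678, 4.87 ± 0.0815 and 5.04 ± 0.196 (SD, n = 4 each), so the rapamycin Atg7-/- group was the most spread. Its replicate 1 was the lowest array of its group in 31 of 46 genes and the highest in 1. Gene by gene, 40 of the 46 had their highest group mean in untreated Atg7-/- cells, 3 in rapamycin Atg7+/- cells and 3 in rapamycin Atg7-/- cells. The lowest group mean was in rapamycin Atg7+/- cells for 26 genes and in untreated Atg7+/- cells for 15.

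**Figure D2:**
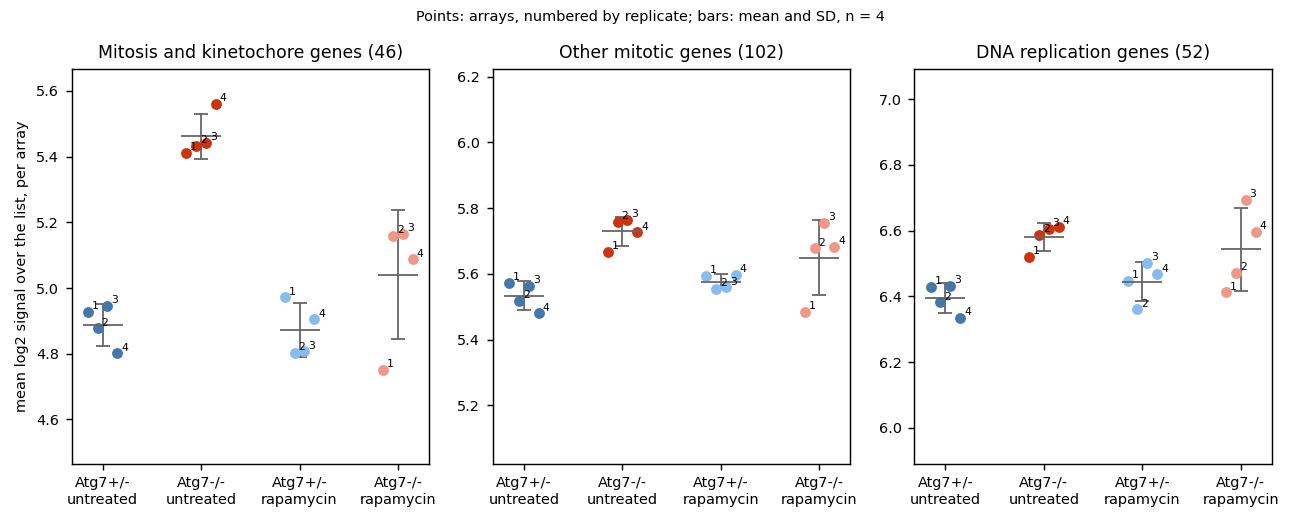
Mean log2 signal per array over the 46 mitosis and kinetochore genes (left), 102 other mitotic genes (middle) and 52 DNA replication genes (right); points are arrays labelled by replicate number, and bars are the group mean and SD (n = 4). In the left panel the untreated Atg7-/- arrays, at 5.41 to 5.56, lie above all other arrays, and replicate 1 of rapamycin Atg7-/- lies at 4.75.

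Differences were tested for the 44 members that were bright enough. The highest group mean of a tested gene had to exceed 3.549 (percentile 30 of all values), and 42 members did so in all 4 groups. Bub1 passed through untreated Atg7-/- cells alone and Cenpk through rapamycin Atg7-/- cells alone. Cdc25c, the phosphatase that activates Cdk1, and Hmmr, a microtubule-binding protein of spindle poles, were below it in every group and were left out; Cdc25c read 3.12 to 3.35 in untreated Atg7+/-, 3.17 to 3.78 in untreated Atg7-/-, 2.61 to 3.12 in rapamycin Atg7+/- and 2.86 to 3.13 in rapamycin Atg7-/- cells. Calls were made with limma at a Benjamini-Hochberg adjusted p below 0.05 over all 16760 genes tested. All differences below are log2 differences of group means.

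Between the untreated genotypes, 22 of the 44 tested members were higher in Atg7-/- cells and 0 lower, where 1.75% of all genes were called higher and 1.39% lower. At an unadjusted p under 0.05 in limma, 33 were higher and 0 lower, beside 1697 higher and 1213 lower of all 16760 genes. The median difference was 0.52 over the 44 and 0.50 over all 46 measured, beside 0.02 over all genes tested. In 29 of the 44 every Atg7-/- array lay above every Atg7+/- array, where 8.17% of all genes tested did so, and in 0 members did every one lie below (5.97% of all genes). Bub1, which the filter kept through the untreated Atg7-/- group alone, is 1 of those 29 and 1 of the 33 above, and had to be higher there. Kinesins, kinetochore, cyclin and chromosome genes were all among those called. The summed linear signal of the myeloid markers moved with this comparison, at 374.1 to 431.7 on Atg7+/- and 473.8 to 494.1 on Atg7-/- arrays, with 0 of 9 tested called by limma (0 at an unadjusted p under 0.05). That of the CD8 and natural killer cell markers was 258.5 to 271.5 and 272.8 to 326.2, with 0 of 6 called (1 at an unadjusted p under 0.05). The B cell markers overlapped, at 129.6 to 142.1 and 130.8 to 150.3, as did the T cell markers, at 9778 to 10380 and 9844 to 11340. The sums of the germinal centre and plasma cell markers overlapped too, but 1 of 7 was called higher and 0 lower. That is 14.3% and 0%, beside 1.75% and 1.39% of all genes. The part of these cells in the result was not tested.

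In Atg7-/- cells rapamycin lowered survivin, Ki-67, Kif11, cyclin A2 and other members. Of the 44, 20 were lower with rapamycin than without it and 0 higher, where 11.1% of all genes were called lower and 8.83% higher. At an unadjusted p under 0.05 in limma, 29 were lower and 0 higher, beside 3286 lower and 2440 higher of all 16760 genes. Bub1 is 1 of these 29 and had to be lower there, since the filter kept it through the untreated Atg7-/- group alone. The median difference was -0.38, beside -0.04 over all genes, and in 20 members the groups did not overlap, with the rapamycin arrays below (11.6% of all genes). In 0 members were all rapamycin arrays above, as they were in 8.76% of all genes. This comparison and the one before share the untreated Atg7-/- arrays, so a high value there moves both in opposite directions, and their values are only set side by side below. Without rapamycin Atg7-/- replicate 1, 17 members were called lower and the median was -0.29. Marker lists moved in this comparison too. The mean log2 signal of the 10 myeloid markers was 4.62, 4.60, 5.38 and 4.50 on the rapamycin Atg7-/- arrays and 5.01 ± 0.0104 (SD, n = 4) on the untreated ones, so that replicate 3 was above and the other 3 below all untreated arrays, with 0 of 9 markers called by limma (0 higher and 2 lower at an unadjusted p under 0.05). The summed B cell signal was 116.4 to 131.0 with rapamycin and 130.8 to 150.3 without, with 1 of 6 markers called lower. That of the T cell markers was 9192 to 9963 and 9844 to 11340, with 3 of 6 called lower and 0 of 6 positive. Of the 7 germinal centre and plasma cell markers, 1 was called higher and 2 lower. That is 14.3% and 28.6%, beside 8.83% and 11.1% of all genes. The part of these lists in the result was not tested.

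In Atg7+/- cells rapamycin left the list near the background. Here 2 members were higher and 3 lower, where 6.03% of all genes were called higher and 8.11% lower. The median was -0.03, the same as over all genes. In 3 members the rapamycin arrays all lay above and in 2 all below the untreated ones, where 9.64% and 13.1% of all genes did so. The T cell marker sum was 7372 to 8631 with rapamycin and 9778 to 10380 without, with 3 of 6 called lower, and its part was not tested.

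**Figure D3:**
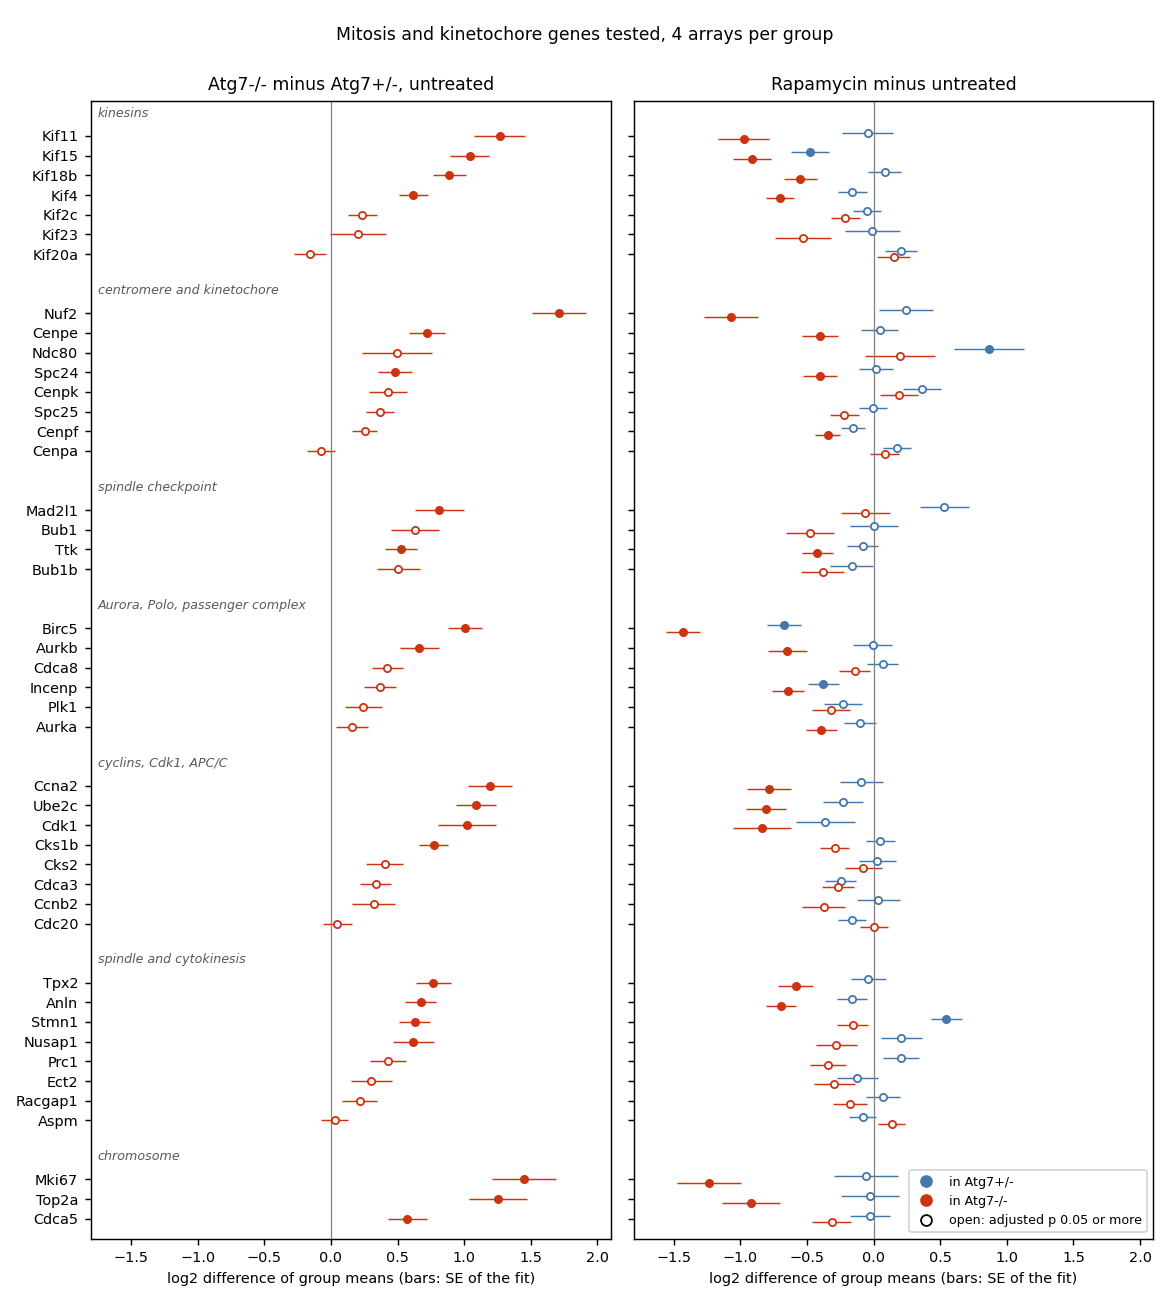
Log2 differences of group means for the 44 tested members, by role: Atg7-/- minus Atg7+/- without treatment (left), and rapamycin minus untreated (right) in Atg7+/- cells (blue) and Atg7-/- cells (red); bars are the SE of the fit and open points are genes not called (adjusted p 0.05 or more). Left, 22 members are called and all lie right of 0; right, the 20 called red points all lie left of 0 and the blue points scatter around it.

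The plot of differences by role shows the called and uncalled members of each class, and the values behind it follow. Beside every class count below stand 1.75% of all genes called higher between untreated genotypes. For rapamycin in Atg7-/- cells the share of all genes called lower was 11.1%. The classes hold few genes, so their counts are a description and no test of a class. Of the 7 kinesins, the motors that walk along or dismantle spindle microtubules, 4 were called higher in untreated Atg7-/- cells and 4 lower with rapamycin in Atg7-/- cells. Kif11, which slides antiparallel microtubules apart to make the spindle bipolar, read 5.39, 5.08, 5.05 and 5.10 in untreated Atg7+/-, 6.11, 6.52, 6.22 and 6.83 in untreated Atg7-/-, 5.24, 5.03, 5.08 and 5.09 in rapamycin Atg7+/- and 4.73, 5.68, 5.86 and 5.51 in rapamycin Atg7-/- cells. All untreated Atg7-/- arrays were above 6 and no other array was, with a fitted difference of 1.27 (SE 0.191, adjusted p = 0.00138), or 2.41-fold, between untreated genotypes and -0.97 (SE 0.191, adjusted p = 0.00193) for rapamycin in Atg7-/- cells. Its rapamycin Atg7-/- values split, with replicate 1 below every Atg7+/- array and the other 3 above them all.

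Kif15, a motor that can stand in for Kif11, read 5.60, 5.61, 5.26 and 5.21 in untreated Atg7+/-, 6.29, 6.42, 6.61 and 6.54 in untreated Atg7-/-, 5.42, 4.94, 4.56 and 4.86 in rapamycin Atg7+/- and 5.50, 5.49, 5.69 and 5.54 in rapamycin Atg7-/- cells. The untreated genotypes did not overlap (1.04, SE 0.145, adjusted p = 0.00078), rapamycin lowered it in Atg7-/- cells (-0.91, SE 0.145, adjusted p = 0.0004), and its 4 rapamycin Atg7-/- arrays lay close together. It was also called in both remaining comparisons of genotype and treatment: lower with rapamycin in Atg7+/- cells (-0.48, SE 0.145, adjusted p = 0.0352) and higher in Atg7-/- than Atg7+/- cells under rapamycin (0.61, SE 0.145, adjusted p = 0.0309). In Atg7+/- cells its rapamycin call ended without untreated Atg7+/- replicate 1 (0.0982), untreated Atg7+/- replicate 2 (0.103), rapamycin Atg7+/- replicate 2 (0.0739), rapamycin Atg7+/- replicate 3 (0.108) or rapamycin Atg7+/- replicate 4 (0.0823), adjusted p in parentheses. Under rapamycin the call between genotypes ended without rapamycin Atg7+/- replicate 2 (0.0988), rapamycin Atg7+/- replicate 3 (0.0623), rapamycin Atg7+/- replicate 4 (0.0718), rapamycin Atg7-/- replicate 3 (0.0816) or rapamycin Atg7-/- replicate 4 (0.0645). Both of these Kif15 calls also ended in a fit of only the groups compared, at 0.0743 for rapamycin in Atg7+/- cells and 0.12 between genotypes.

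Kif18b, which shortens astral microtubules, read 4.69, 4.56, 4.71 and 4.55 in untreated Atg7+/-, 5.45, 5.38, 5.60 and 5.63 in untreated Atg7-/-, 5.06, 4.52, 4.46 and 4.82 in rapamycin Atg7+/- and 4.74, 5.19, 4.97 and 4.98 in rapamycin Atg7-/- cells. Untreated Atg7-/- arrays were the highest throughout, with 0.89 (SE 0.124, adjusted p = 0.00078) between untreated genotypes and -0.55 (SE 0.124, adjusted p = 0.00484) with rapamycin in Atg7-/- cells. Kif4, a motor on chromosome arms, was also highest in untreated Atg7-/- cells, with a difference of 0.62 (SE 0.106, adjusted p = 0.00358) between untreated genotypes. Its rapamycin difference in Atg7-/- cells was -0.70 (SE 0.106, adjusted p = 0.000257), and the 2 groups did not overlap (4.53 to 4.78 untreated, 3.74 to 4.16 with rapamycin). The other 3 kinesins were not called in either comparison. Kif2c, a microtubule depolymerase at centromeres, had a difference of 0.24 between untreated genotypes and -0.21 with rapamycin in Atg7-/- cells. Kif23 and Kif20a, motors of the central spindle in late mitosis, had 0.20 and -0.16 between untreated genotypes and -0.53 and 0.15 with rapamycin in Atg7-/- cells. Kif23 had an adjusted p of 0.0799 in the latter, and was called there without untreated Atg7-/- replicate 1 (0.0397) or rapamycin Atg7-/- replicate 3 (0.00906), and with the replicate number as a block (0.0385).

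Among 8 genes of the centromere and kinetochore, 3 were called higher in untreated Atg7-/- cells and 4 lower with rapamycin in Atg7-/- cells. The outer kinetochore binds microtubules through the NDC80 complex, whose subunits are Ndc80, Nuf2, Spc24 and Spc25, and their differences were of unequal size. Nuf2 had the largest difference of all members between untreated genotypes and read 3.95, 3.60, 3.57 and 3.81 in untreated Atg7+/-, 5.40, 5.24, 5.58 and 5.55 in untreated Atg7-/-, 4.23, 4.12, 3.61 and 3.94 in rapamycin Atg7+/- and 3.60, 4.68, 4.81 and 4.41 in rapamycin Atg7-/- cells. Every untreated Atg7-/- array was above all arrays of the other groups (1.71, SE 0.201, adjusted p = 0.000345, 3.28-fold, between untreated genotypes). Under rapamycin, Atg7-/- replicate 1 at 3.60 was just below the Atg7+/- arrays (3.61 to 4.23), and the other 3 were above them. With rapamycin in Atg7-/- cells the difference was -1.07 (SE 0.201, adjusted p = 0.00138).

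Ndc80, the partner that forms a coiled coil with Nuf2, read 5.01, 5.46, 5.70 and 4.95 in untreated Atg7+/-, 5.47, 5.61, 5.88 and 6.13 in untreated Atg7-/-, 6.18, 5.69, 6.47 and 6.23 in rapamycin Atg7+/- and 5.07, 6.51, 6.40 and 5.90 in rapamycin Atg7-/- cells. Its untreated genotypes overlapped (0.49, SE 0.261, adjusted p = 0.348), and the called change was an increase with rapamycin in Atg7+/- cells (0.87, SE 0.261, adjusted p = 0.0339). In Atg7+/- cells this call ended without untreated Atg7+/- replicate 1 (0.0902), untreated Atg7+/- replicate 2 (0.0504), untreated Atg7+/- replicate 4 (0.0955), rapamycin Atg7+/- replicate 1 (0.0746), rapamycin Atg7+/- replicate 3 (0.0882) or rapamycin Atg7+/- replicate 4 (0.0725), after quantile normalization (0.0643) and with arrays centred on their medians (0.0546).

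Spc24 and Spc25, the inner dimer of that complex, had smaller differences. Spc24 read 4.92 to 5.02 in untreated Atg7+/- and 5.27 to 5.70 in untreated Atg7-/- cells and was called by a narrow margin (0.48, SE 0.127, adjusted p = 0.0466). That call ended whichever of the 8 untreated arrays was left out (adjusted p between 0.0507 without Atg7-/- replicate 3 and 0.14 without Atg7-/- replicate 4), and without rapamycin Atg7+/- replicate 3 (0.0554) or 4 (0.0545) or rapamycin Atg7-/- replicate 4 (0.0561). With rapamycin in Atg7-/- cells Spc24 was lower (-0.40, SE 0.127, adjusted p = 0.0335), a call that ended without untreated Atg7-/- replicate 2 (0.0626), untreated Atg7-/- replicate 4 (0.103), rapamycin Atg7-/- replicate 1 (0.0906) or rapamycin Atg7-/- replicate 4 (0.0746). Both Spc24 calls also ended with the replicate number as a block (0.0707 between untreated genotypes and 0.0505 for rapamycin) and with arrays centred on their medians (0.0728 and 0.0543); the former ended without a filter on dim genes (0.0574), the latter in a fit of only the groups compared (0.0579). For Spc25 the untreated difference was 0.37 (SE 0.106, adjusted p = 0.0643), and it was called without untreated Atg7+/- replicate 1 (0.0184), the array that read 4.32 where the other 3 of its group read 3.88 to 3.91, or without rapamycin Atg7-/- replicate 1 (0.049).

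Cenpe, a kinesin that carries chromosomes to the spindle equator from the kinetochore, read 4.48, 4.66, 4.56 and 4.60 in untreated Atg7+/-, 5.27, 5.10, 5.10 and 5.69 in untreated Atg7-/-, 4.78, 4.68, 4.29 and 4.72 in rapamycin Atg7+/- and 4.74, 4.77, 4.87 and 5.17 in rapamycin Atg7-/- cells. Untreated Atg7-/- arrays were above every other array except rapamycin Atg7-/- replicate 4, which at 5.17 exceeded replicates 2 and 3 of them (0.72, SE 0.136, adjusted p = 0.00657 between untreated genotypes). The rapamycin difference in Atg7-/- cells was -0.40 (SE 0.136, adjusted p = 0.044) and rested on the arrays used: the adjusted p was 0.142 without untreated Atg7-/- replicate 4, 0.0775 without replicate 1 of that group, 0.1, 0.108 and 0.0709 without rapamycin Atg7-/- replicates 1, 2 and 3, and 0.0516 to 0.0532 without any of the untreated Atg7+/- arrays or without rapamycin Atg7+/- replicate 2 or 4. It was 0.056 with arrays centred on their medians, 0.052 without a filter on dim genes and 0.0919 in a fit of only the groups compared. Cenpf, a large coiled-coil protein of the outer kinetochore, was not called between untreated genotypes (0.25, SE 0.0921, adjusted p = 0.151) and was lower with rapamycin in Atg7-/- cells (-0.34, SE 0.0921, adjusted p = 0.014), though not in a fit of those 2 groups alone (0.0528).

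Cenpa, the histone H3 variant that marks centromeric chromatin, was not called, with 6.45 to 6.67 and 6.25 to 6.62 in the untreated genotypes and a difference of -0.07 (SE 0.107, adjusted p = 0.781). Cenpk, a subunit of the constitutive centromere network, was dim and read 3.25, 3.17, 3.09 and 2.71 in untreated Atg7+/-, 3.36, 3.53, 3.41 and 3.63 in untreated Atg7-/-, 3.41, 3.38, 3.29 and 3.59 in rapamycin Atg7+/- and 3.40, 4.14, 3.56 and 3.61 in rapamycin Atg7-/- cells. Untreated Atg7+/- arrays were the lowest of all, below every array of the other groups; the difference was 0.43 (SE 0.142, adjusted p = 0.112) between untreated genotypes and 0.62 (SE 0.142, adjusted p = 0.00579) between rapamycin Atg7-/- and untreated Atg7+/- cells. The filter kept it through the rapamycin Atg7-/- group alone, so its call in the latter is a description and supports nothing.

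The spindle checkpoint was covered by 4 genes, of which 2 were called higher in untreated Atg7-/- cells and 1 lower with rapamycin in Atg7-/- cells. That is 50% and 25%, beside 1.75% and 11.1% of all genes, and 1 gene of 4 is no result about the class. In Mad2l1, Ttk and Bub1b every untreated Atg7-/- array was above every untreated Atg7+/- array. Mad2l1, whose product Mad2 blocks the activator Cdc20, read 5.88, 5.69, 5.64 and 5.34 in untreated Atg7+/-, 6.31, 6.43, 6.33 and 6.73 in untreated Atg7-/-, 5.95, 6.06, 6.46 and 6.20 in rapamycin Atg7+/- and 5.87, 6.31, 6.99 and 6.38 in rapamycin Atg7-/- cells. It was higher in untreated Atg7-/- cells (0.81, SE 0.183, adjusted p = 0.0199) and, was not called with rapamycin in Atg7-/- cells (-0.06, SE 0.183, adjusted p = 0.843). Its value in Atg7+/- cells with rapamycin lay above all 4 untreated Atg7+/- arrays, a difference of 0.53 (SE 0.183, adjusted p = 0.0622). That difference was called without rapamycin Atg7-/- replicate 1 (0.0304) or 3 (0.0189) or in a fit of only the groups compared (0.0221). Between untreated genotypes the call ended without untreated Atg7+/- replicate 3 (0.0508), untreated Atg7+/- replicate 4 (0.0742) or untreated Atg7-/- replicate 4 (0.0724).

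Ttk, the kinase Mps1 that starts checkpoint signalling, read 3.67 to 3.95 and 4.07 to 4.63 in the untreated genotypes (0.53, SE 0.117, adjusted p = 0.0184) and 3.76 to 4.11 in rapamycin Atg7-/- cells (-0.42, SE 0.117, adjusted p = 0.0163 against untreated). Its call between untreated genotypes ended without untreated Atg7+/- replicate 1 (0.0637), untreated Atg7+/- replicate 4 (0.0617) or untreated Atg7-/- replicate 4 (0.0606), and its rapamycin call without untreated Atg7-/- replicate 4 (0.0549) or rapamycin Atg7-/- replicate 4 (0.0524) or in a fit of only the groups compared (0.0539). Bub1, a checkpoint kinase that passed the filter through untreated Atg7-/- cells alone, read 3.13, 3.10, 3.19 and 2.84 in untreated Atg7+/- and 3.36, 3.31, 3.76 and 4.34 in untreated Atg7-/- cells, a difference of 0.63 (SE 0.183, adjusted p = 0.0678). With rapamycin in Atg7-/- cells it had -0.48 (SE 0.183, adjusted p = 0.0744). Both values are given as a description, since that filter selected the gene through its high group. Bub1b, which encodes BubR1 of the complex that inhibits Cdc20, had 0.51 (SE 0.162, adjusted p = 0.1) between untreated genotypes and -0.38 (SE 0.162, adjusted p = 0.103) with rapamycin in Atg7-/- cells. It was called in the former in a fit of only the groups compared (0.0277) and in the latter without rapamycin Atg7-/- replicate 3 (0.0479).

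Of the 6 Aurora, Polo and passenger complex genes, 2 were called higher in untreated Atg7-/- cells and 4 lower with rapamycin in Atg7-/- cells. Birc5 encodes survivin, the passenger complex subunit that docks it to the centromere, and read 6.03, 6.18, 6.05 and 6.15 in untreated Atg7+/-, 7.04, 7.31, 7.21 and 6.88 in untreated Atg7-/-, 5.30, 5.38, 5.22 and 5.82 in rapamycin Atg7+/- and 5.47, 5.60, 5.78 and 5.87 in rapamycin Atg7-/- cells. It separated the groups in both directions: untreated Atg7-/- arrays were the highest (1.01, SE 0.129, adjusted p = 0.000553), and both rapamycin groups lay below untreated Atg7+/- cells. Rapamycin lowered it by 2.7-fold in Atg7-/- cells (-1.43, SE 0.129, adjusted p = 2.91e-06, the largest drop among the 44 members in that comparison) and by 1.59-fold in Atg7+/- cells (-0.67, SE 0.129, adjusted p = 0.00273).

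Aurkb, the kinase of the passenger complex, ranged from 4.64 to 5.02 in untreated Atg7+/-, 5.39 to 5.86 in untreated Atg7-/-, 4.44 to 5.18 in rapamycin Atg7+/- and 4.73 to 5.08 in rapamycin Atg7-/- cells. Untreated Atg7-/- arrays were above all others, with 0.66 (SE 0.146, adjusted p = 0.0179) between untreated genotypes and -0.65 (SE 0.146, adjusted p = 0.00486) with rapamycin in Atg7-/- cells. The former call ended without untreated Atg7+/- replicate 4 (0.0658) or untreated Atg7-/- replicate 2 (0.0568). Incenp, the scaffold of the complex, read 6.19, 6.14, 6.27 and 6.04 in untreated Atg7+/-, 6.42, 6.53, 6.57 and 6.58 in untreated Atg7-/-, 5.78, 5.76, 5.79 and 5.80 in rapamycin Atg7+/- and 5.84, 5.55, 6.32 and 5.84 in rapamycin Atg7-/- cells. Its rapamycin arrays lay below the untreated ones in both genotypes with -0.38 (SE 0.117, adjusted p = 0.0397) in Atg7+/- and -0.64 (SE 0.117, adjusted p = 0.00114) in Atg7-/- cells. In Atg7+/- cells the call ended without untreated Atg7+/- replicate 1 (0.0821), untreated Atg7+/- replicate 2 (0.0731), untreated Atg7+/- replicate 3 (0.105), rapamycin Atg7+/- replicate 1 (0.0788), rapamycin Atg7+/- replicate 2 (0.0862), rapamycin Atg7+/- replicate 3 (0.067) or rapamycin Atg7+/- replicate 4 (0.0691), and with arrays centred on their medians (0.0546). Between untreated genotypes Incenp had 0.37 (SE 0.117, adjusted p = 0.099) although its arrays did not overlap. It was called there without rapamycin Atg7-/- replicate 3 (0.0191) or in a fit of only the groups compared (0.0328).

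Cdca8, which encodes the passenger subunit borealin, was close to the threshold between untreated genotypes, at 5.11 to 5.17 and 5.43 to 5.76 (0.42, SE 0.118, adjusted p = 0.0576). It was called there without rapamycin Atg7-/- replicate 1 (0.0282) or 3 (0.0376) and in a fit of only the groups compared (0.0223). A filter at the median of all values also gave a call (0.0418). The kinases of the spindle poles, Aurka and Plk1, had 0.16 and 0.24 between untreated genotypes, not called. Aurka was lower with rapamycin in Atg7-/- cells (-0.39, SE 0.117, adjusted p = 0.0254), a call that ended without untreated Atg7-/- replicate 2 (0.06), untreated Atg7-/- replicate 3 (0.0813), rapamycin Atg7-/- replicate 1 (0.0553) or rapamycin Atg7-/- replicate 3 (0.0528), and Plk1 had -0.32 (SE 0.142, adjusted p = 0.122).

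Among the 8 tested cyclin, Cdk1 and anaphase-promoting complex genes, 4 were called higher in untreated Atg7-/- cells and 3 lower with rapamycin in Atg7-/- cells. Ccna2, the cyclin of S and G2 phase, read 5.49, 5.13, 5.24 and 4.62 in untreated Atg7+/-, 6.19, 6.29, 6.30 and 6.49 in untreated Atg7-/-, 5.33, 5.15, 4.74 and 4.90 in rapamycin Atg7+/- and 5.23, 5.68, 5.67 and 5.55 in rapamycin Atg7-/- cells. Untreated Atg7-/- arrays were above 6 and no other array was (1.19, SE 0.163, adjusted p = 0.00076 between untreated genotypes; -0.79, SE 0.163, adjusted p = 0.00275 with rapamycin in Atg7-/- cells). Cdk1, the kinase that drives mitosis, read 5.28, 5.55, 5.49 and 5.41 in untreated Atg7+/-, 6.68, 6.46, 6.30 and 6.37 in untreated Atg7-/-, 5.51, 4.92, 4.48 and 5.37 in rapamycin Atg7+/- and 4.87, 5.94, 5.96 and 5.68 in rapamycin Atg7-/- cells. The untreated genotypes did not overlap (1.02, SE 0.219, adjusted p = 0.016), although the call ended without untreated Atg7+/- replicate 1 (0.0515) or untreated Atg7-/- replicate 1 (0.0545). Rapamycin lowered Cdk1 in Atg7-/- cells by 1.79-fold (-0.84, SE 0.219, adjusted p = 0.0123).

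Ube2c, the ubiquitin-conjugating enzyme of the anaphase-promoting complex, read 5.54, 5.09, 5.51 and 5.07 in untreated Atg7+/-, 6.62, 6.36, 6.24 and 6.33 in untreated Atg7-/-, 5.06, 5.16, 4.96 and 5.12 in rapamycin Atg7+/- and 5.10, 5.78, 5.87 and 5.57 in rapamycin Atg7-/- cells. Its untreated Atg7-/- arrays were above all others (1.09, SE 0.15, adjusted p = 0.00078 between untreated genotypes; -0.81, SE 0.15, adjusted p = 0.00129 with rapamycin in Atg7-/- cells). Cks1b, a small subunit of Cdk complexes, read 6.56, 6.58, 6.36 and 6.18 in untreated Atg7+/-, 7.17, 7.08, 7.06 and 7.44 in untreated Atg7-/-, 6.60, 6.36, 6.46 and 6.45 in rapamycin Atg7+/- and 6.84, 6.77, 6.87 and 7.11 in rapamycin Atg7-/- cells. In both treatments its Atg7-/- arrays lay above the Atg7+/- arrays, with 0.77 (SE 0.11, adjusted p = 0.000881) untreated and 0.43 (SE 0.11, adjusted p = 0.0411) under rapamycin, and rapamycin in Atg7-/- cells gave -0.29 (SE 0.11, adjusted p = 0.0715), which became a call without rapamycin Atg7-/- replicate 4 (0.0413). Under rapamycin the call between genotypes was narrow. It ended without any rapamycin Atg7+/- array (adjusted p 0.0577, 0.148, 0.0614 and 0.0807 for replicates 1 to 4), without rapamycin Atg7-/- replicate 1, 3 or 4 (0.054, 0.0779 and 0.118), and without untreated Atg7+/- replicate 3 (0.0539), untreated Atg7-/- replicate 1 (0.0534) or untreated Atg7-/- replicate 3 (0.0504). It also ended with the replicate number as a block (0.0531), in a fit of only the groups compared (0.102) and without a filter on dim genes (0.0517).

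The remaining genes of this class were not called in either comparison. Cks2, the second Cdk subunit, had 0.40 between untreated genotypes and -0.08 with rapamycin in Atg7-/- cells, from the brightest of 4 probe sets. Ccnb2, a B-type cyclin, had 0.32 and -0.37, and was called in the latter without rapamycin Atg7-/- replicate 4 (0.0389). Cdca3, which helps degrade the Cdk1 inhibitor Wee1, had 0.34 and -0.27, and was called in the former in a fit of only the groups compared (0.0479). Cdc20, the activator of the anaphase-promoting complex that the checkpoint restrains, was flat, at 4.69 to 4.81 in untreated Atg7+/-, 4.63 to 4.95 in untreated Atg7-/-, 4.42 to 4.75 in rapamycin Atg7+/- and 4.59 to 5.09 in rapamycin Atg7-/- cells. All 4 of its groups overlapped, and the fitted difference between untreated genotypes was 0.05 (SE 0.108, adjusted p = 0.876).

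Of the 8 tested genes of spindle assembly and cytokinesis, 4 were called higher in untreated Atg7-/- cells and 2 lower with rapamycin in Atg7-/- cells. That is 50% and 25%, beside 1.75% and 11.1% of all genes, and 2 genes of 8 lower are no result about the class. Tpx2, which activates Aurora A and nucleates spindle microtubules, read 4.08, 4.26, 4.32 and 4.36 in untreated Atg7+/-, 4.85, 4.94, 5.31 and 4.99 in untreated Atg7-/-, 4.37, 4.25, 3.95 and 4.29 in rapamycin Atg7+/- and 4.14, 4.39, 4.76 and 4.46 in rapamycin Atg7-/- cells. Every untreated Atg7-/- array was above every array of the other groups (0.77, SE 0.131, adjusted p = 0.00352 between untreated genotypes; -0.58, SE 0.131, adjusted p = 0.00469 with rapamycin in Atg7-/- cells). Anln, the actin-binding scaffold of the cleavage furrow, read 3.88, 3.95, 3.99 and 3.62 in untreated Atg7+/-, 4.53, 4.53, 4.61 and 4.47 in untreated Atg7-/-, 3.77, 3.63, 3.46 and 3.94 in rapamycin Atg7+/- and 3.57, 3.85, 3.90 and 4.03 in rapamycin Atg7-/- cells. Its differences were 0.67 (SE 0.116, adjusted p = 0.00359) and -0.69 (SE 0.116, adjusted p = 0.000581) in these comparisons, without overlap in either.

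Stmn1, which destabilizes microtubules until it is phosphorylated in mitosis, read 4.00, 3.99, 4.25 and 3.82 in untreated Atg7+/-, 4.52, 4.60, 4.77 and 4.68 in untreated Atg7-/-, 4.34, 4.45, 4.86 and 4.59 in rapamycin Atg7+/- and 4.39, 4.37, 4.65 and 4.55 in rapamycin Atg7-/- cells. The 4 untreated Atg7+/- arrays were the lowest and the other 3 groups overlapped. It was higher in untreated Atg7-/- cells (0.63, SE 0.116, adjusted p = 0.00572) and higher with rapamycin in Atg7+/- cells (0.55, SE 0.116, adjusted p = 0.00515), and rapamycin in Atg7-/- cells gave -0.15 (SE 0.116, adjusted p = 0.368). Nusap1, a spindle microtubule bundler, was called higher between untreated genotypes (0.62, SE 0.153, adjusted p = 0.0343), but not without untreated Atg7+/- replicate 1 (0.104), untreated Atg7+/- replicate 2 (0.0827), untreated Atg7+/- replicate 4 (0.0825), untreated Atg7-/- replicate 3 (0.0891) or untreated Atg7-/- replicate 4 (0.106), or with arrays centred on their medians (0.0673). The remaining 4 were not called in either comparison: Prc1, the midzone bundler (0.43 between untreated genotypes, -0.34 with rapamycin in Atg7-/- cells), Ect2, a cytokinesis factor of the furrow (0.30, -0.30), Racgap1, its centralspindlin partner (0.21, -0.18), and Aspm, a spindle pole protein (0.03, 0.14). Prc1 was called between untreated genotypes without untreated Atg7+/- replicate 1 (0.04), the highest of its group. For rapamycin in Atg7-/- cells it was called after quantile normalization (0.0491).

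All 3 chromosome genes were called higher in untreated Atg7-/- cells. Mki67 encodes Ki-67, the coat protein of mitotic chromosomes and the usual stain for cycling cells, and read 6.03, 6.13, 6.07 and 5.71 in untreated Atg7+/-, 7.37, 7.21, 7.53 and 7.62 in untreated Atg7-/-, 6.53, 5.55, 5.84 and 5.77 in rapamycin Atg7+/- and 5.34, 6.79, 6.33 and 6.32 in rapamycin Atg7-/- cells. Untreated Atg7-/- arrays were above 7 and no other array was, a difference of 1.45 (SE 0.239, adjusted p = 0.00275) or 2.73-fold between untreated genotypes and of -1.24 (SE 0.239, adjusted p = 0.00172) with rapamycin in Atg7-/- cells. Rapamycin Atg7-/- replicate 1 was the lowest of all 16 arrays for it. Top2a, the topoisomerase that disentangles sister chromatids, read 6.22, 6.14, 6.31 and 5.68 in untreated Atg7+/-, 7.24, 7.22, 7.30 and 7.61 in untreated Atg7-/-, 6.33, 5.95, 5.97 and 5.99 in rapamycin Atg7+/- and 5.56, 6.92, 6.76 and 6.45 in rapamycin Atg7-/- cells. The same split was seen, with 1.26 (SE 0.218, adjusted p = 0.00369) and -0.92 (SE 0.218, adjusted p = 0.00657) in these comparisons. Cdca5, or sororin, which protects sister chromatid cohesion, had 0.57 (SE 0.148, adjusted p = 0.0414) between untreated genotypes. That call ended whichever of the 8 untreated arrays was left out (adjusted p between 0.0535 without Atg7+/- replicate 4 and 0.111 without Atg7+/- replicate 2, the array that read 3.94), without rapamycin Atg7+/- replicate 4 (0.056) or rapamycin Atg7-/- replicate 4 (0.0509), with the replicate number as a block (0.061), with arrays centred on their medians (0.0541) and without a filter on dim genes (0.0502).

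**Figure D4:**
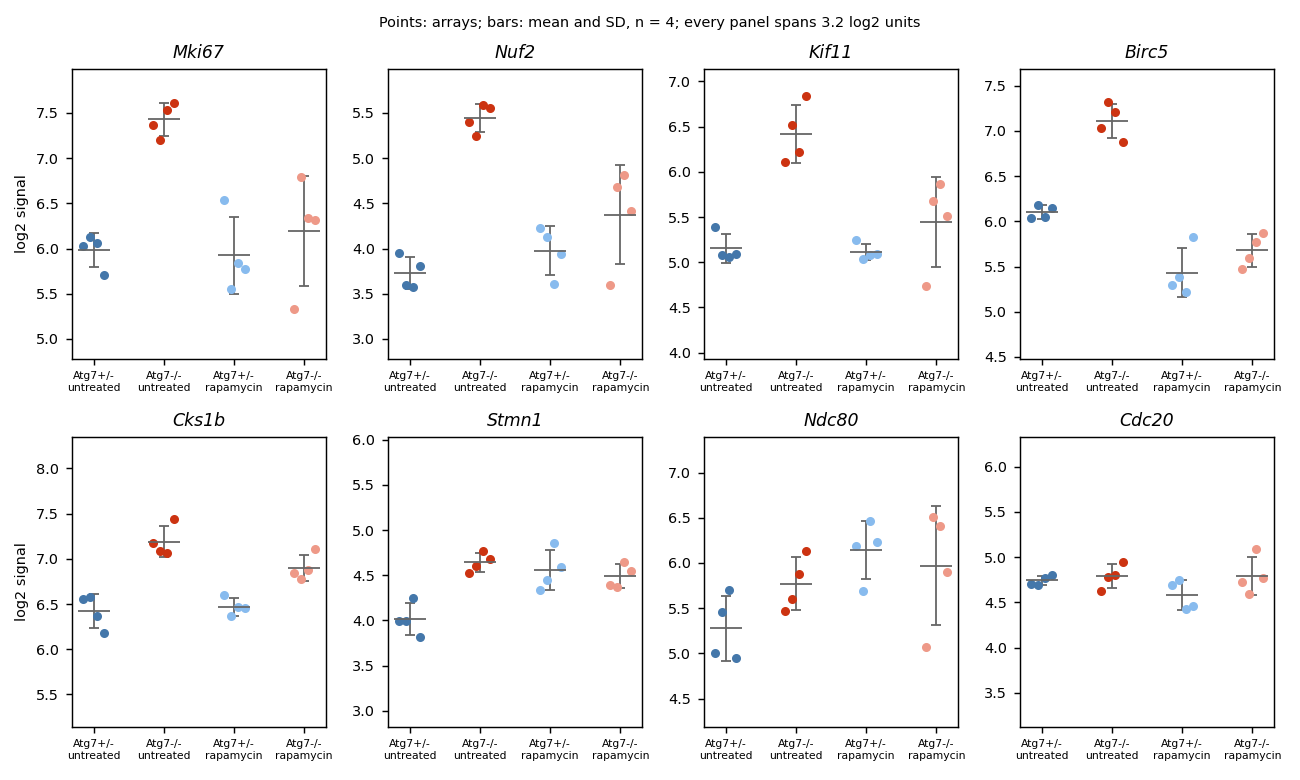
Log2 signal on each array of 8 members with different patterns; points are arrays, bars are the group mean and SD (n = 4), and every panel spans the same number of log2 units. Mki67, Nuf2 and Kif11 are highest in untreated Atg7-/- cells with a split rapamycin Atg7-/- group, Birc5 is lowest in both rapamycin groups, Cks1b is higher in Atg7-/- cells under both treatments, Stmn1 is lowest in untreated Atg7+/- cells, Ndc80 is highest on average in rapamycin Atg7+/- cells, and Cdc20 overlaps in all 4 groups.

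The plot of 8 members by array sets these patterns beside each other. Between the genotypes under rapamycin, 2 members were called higher in Atg7-/- cells, Kif15 and Cks1b, and 0 lower, where 1.91% of all genes were called higher and 1.33% lower. At an unadjusted p under 0.05, 8 were higher and 0 lower by limma, beside 1923 higher and 1144 lower of all 16760 genes. The median difference was 0.20, beside 0.02 over all genes, and 2 members did not overlap (6.01% of all genes had every Atg7-/- array above). The count depended on the arrays: it was 6 without rapamycin Atg7-/- replicate 1, when Kif11 (0.57, adjusted p = 0.0434), Nuf2 (0.66, 0.0261), Top2a (0.65, 0.034), Ube2c (0.66, 0.0155) and Cdk1 (0.79, 0.0307) were called beside Kif15. It was 1 without untreated Atg7+/- replicate 3, untreated Atg7-/- replicate 1 or 3 or rapamycin Atg7+/- replicate 1, and 0 without rapamycin Atg7+/- replicate 2, 3 or 4 or rapamycin Atg7-/- replicate 3 or 4. The myeloid marker sum was 367.1 to 510.7 and 324.2 to 795.4 in the 2 groups, and that of the CD8 and natural killer cell markers 210.9 to 236.8 and 262.5 to 328.9, with Cd8b1 called higher (0.72, SE 0.155, adjusted p = 0.0198). The T cell marker sum was 7372 to 8631 and 9192 to 9963, with 2 of 6 called higher. Of the 7 germinal centre and plasma cell markers, 0 were called higher and 1 lower (14.3%, beside 1.33% of all genes). The part of these markers was not tested.

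Rapamycin Atg7-/- cells were also set against untreated Atg7+/- cells, the control with neither change. Here 5 members were higher, where 9.02% of all genes were, and 1 was lower, where 8.56% were. The higher ones were Mad2l1 (0.75, SE 0.183, adjusted p = 0.0089), Nuf2 (0.64, SE 0.201, adjusted p = 0.0344), Cenpk (0.62, SE 0.142, adjusted p = 0.00579), Cks1b (0.48, SE 0.11, adjusted p = 0.00604) and Stmn1 (0.47, SE 0.116, adjusted p = 0.00887). Cenpk passed the filter only through the group on the high side of this comparison, so its place among the 5 is not a result. The lower one was Birc5 (-0.43, SE 0.129, adjusted p = 0.0292). The median difference was 0.14, beside -0.02 over all genes, and in 5 members all rapamycin Atg7-/- arrays lay above and in 1 all below (10.2% and 10.8% of all genes). Without rapamycin Atg7-/- replicate 1 the count of higher members was 12. Kif11 (0.53), Top2a (0.62), Ndc80 (0.99), Ccna2 (0.51), Ube2c (0.44), Kif18b (0.42) and Cdca8 (0.39) were then called in addition. The Birc5 call ended without untreated Atg7+/- replicate 2 (0.0727), untreated Atg7+/- replicate 4 (0.0685), rapamycin Atg7-/- replicate 1 (0.0842) or rapamycin Atg7-/- replicate 2 (0.07), and that of Nuf2 without untreated Atg7+/- replicate 2 (0.083), untreated Atg7+/- replicate 3 (0.0879), untreated Atg7+/- replicate 4 (0.0565), rapamycin Atg7-/- replicate 2 (0.102), rapamycin Atg7-/- replicate 3 (0.0996) or rapamycin Atg7-/- replicate 4 (0.0717). With arrays centred on their medians Birc5 was not called (0.0528), and Nuf2 was not called with the replicate number as a block (0.0524) or in a fit of only the groups compared (0.0845), where Ndc80 was called with the block (0.0438).

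Whether rapamycin acted differently in the 2 genotypes was tested as the rapamycin difference in Atg7-/- cells minus that in Atg7+/- cells. By limma 0 of the 44 members were called in either direction, as were 0 (0%) of all 16760 genes. At an unadjusted p under 0.05, 20 members were lower and 0 higher, beside 570 lower and 482 higher among all genes. The median over the members was -0.43, beside 0.00 over all genes, and 2 of the 44 values were positive. With 1 array left out that median over the members ranged from -0.50 to -0.32. The most negative were Nuf2 at -1.31 (SE 0.284, adjusted p = 0.31), Mki67 at -1.18 (SE 0.338, adjusted p = 0.533), Kif11 at -0.93 (SE 0.271, adjusted p = 0.539) and Top2a at -0.89 (SE 0.308, adjusted p = 0.655). Stmn1 had -0.70 (SE 0.164, adjusted p = 0.349) and Birc5 -0.76 (SE 0.182, adjusted p = 0.349). For no member is the rapamycin difference in Atg7-/- cells shown to differ from that in Atg7+/- cells.

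Other genes of division were taken from wider lists drawn up for this description. Of 100 tested of 110 other mitotic genes, 11 were higher in untreated Atg7-/- cells and 1 lower (11% and 1%, beside 1.75% and 1.39% of all genes), with a median of 0.20. The kinetochore scaffold Knl1 (0.97, SE 0.121, adjusted p = 0.000515), the Cdk1-inhibiting kinase Wee1 (0.78), Shcbp1, which acts with centralspindlin (0.76), and the centriole protein Stil (0.71) rose most, and the condensin subunit Smc4 fell (-0.46, SE 0.07, adjusted p = 0.00149). With rapamycin in Atg7-/- cells 17 were lower and 7 higher (17% and 7%, beside 11.1% and 8.83% of all genes), with a median of -0.08. The phosphatase Cdc25a (-0.87, SE 0.11, adjusted p = 5.12e-05), Stil (-0.77), the condensin subunit Ncaph (-0.74) and Knl1 (-0.62) fell most. Cenpq of the constitutive centromere network (1.13, SE 0.152, adjusted p = 9.02e-05), Haus1 of the augmin complex (0.76), Smc4 (0.52) and Cenpt, also of the centromere network (0.49), rose. In Atg7+/- cells rapamycin raised 10 and lowered 3 (10% and 3%, beside 6.03% and 8.11% of all genes), among them Haus1 (0.65) and Cenpq (0.58) upward and Cdc25a (-0.97, SE 0.11, adjusted p = 4.25e-05) downward. Under rapamycin 3 were higher in Atg7-/- than Atg7+/- cells and 1 lower (3% and 1%, beside 1.91% and 1.33%). Rapamycin Atg7-/- against untreated Atg7+/- cells gave 13 higher and 4 lower (13% and 4%, beside 9.02% and 8.56%).

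Among 52 DNA replication genes 7 were higher in untreated Atg7-/- cells and 0 lower (13.5% and 0%, beside 1.75% and 1.39% of all genes), with a median of 0.17. They were led by the ribonucleotide reductase subunit Rrm2 (0.97, SE 0.233, adjusted p = 0.0285), the chromatin assembly factor Chaf1a (0.72), the helicase component Cdc45 (0.59) and the dUTPase Dut (0.53). In Atg7-/- cells rapamycin lowered 10, led by Rrm2 (-0.87), thymidine kinase Tk1 (-0.79), Uhrf1, which recruits the maintenance DNA methyltransferase (-0.74), and Mcm10 (-0.60), and raised 6, led by Rpa3 (0.84), Gins4 (0.64), Mcm7 (0.57) and Pole2 (0.54). The median there was 0.00, and these are 19.2% lower and 11.5% higher, beside 11.1% and 8.83% of all genes. Rapamycin in Atg7+/- cells raised 5 and lowered 2 (9.62% and 3.85%, beside 6.03% and 8.11%). Under rapamycin 1, Dut, was higher in Atg7-/- cells (0.45), a share of 1.92% beside 1.91% of all genes. Rapamycin Atg7-/- against untreated Atg7+/- cells gave 11 higher and 2 lower (21.2% and 3.85%, beside 9.02% and 8.56%).

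The plot of percent called shows the lists side by side. Between untreated genotypes 50% of the tested mitosis and kinetochore genes were called higher, beside 11% of the other mitotic genes and 13.5% of the replication genes. For rapamycin in Atg7-/- cells the percent called lower was 45.5%, beside 17% and 19.2%. The listed members were chosen with results of these data known, so these shares describe the lists and give no test of a difference between them.

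**Figure D5:**
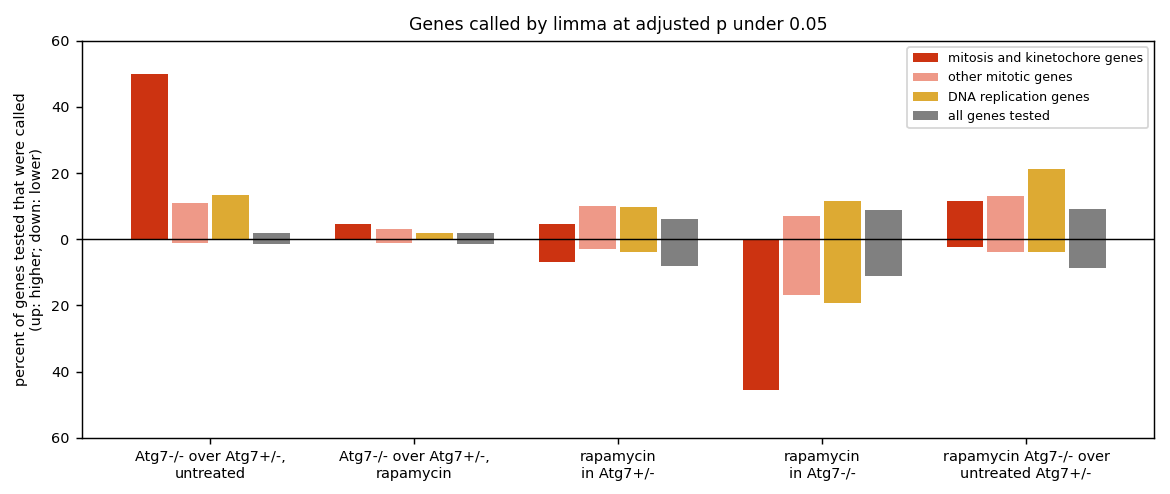
Percent of tested genes called by limma at an adjusted p under 0.05, higher (up) or lower (down), in 5 comparisons, for the mitosis and kinetochore genes (44 tested), other mitotic genes (100), DNA replication genes (52) and all genes (16760). The members reach 50% higher between untreated genotypes and 45.5% lower with rapamycin in Atg7-/- cells, where all genes reach 1.75% and 11.1%.

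The last list held regulators of such promoters. Of 21 tested, 2 were higher in untreated Atg7-/- cells and 0 lower (9.52% and 0%, beside 1.75% and 1.39% of all genes): E2f8, a repressor of the E2F family (0.84, SE 0.122, adjusted p = 0.000904), and Tfdp1, the dimer partner of E2F factors (0.48, SE 0.0854, adjusted p = 0.00433). Rapamycin in Atg7-/- cells lowered 4, E2f8 (-0.90, SE 0.122, adjusted p = 9.51e-05), E2f3 (-0.70), E2f4 (-0.45) and Tfdp1 (-0.42), and raised 2, the MuvB subunit Lin52 (0.66) and the pocket protein gene Rbl1 (0.36), or 19% and 9.52% beside 11.1% and 8.83% of all genes. In Atg7+/- cells rapamycin lowered E2f3 (-0.71) and E2f4 (-0.66) and raised Lin52 (0.79), Rbl1 (0.61) and Rb1 (0.29), or 9.52% and 14.3% beside 8.11% and 6.03%. Under rapamycin Rb1 was lower in Atg7-/- cells (-0.35, SE 0.0915, adjusted p = 0.047), the 1 regulator called there (4.76%, beside 1.33% of all genes).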

How the data were processed

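RNA of 16 sorted Treg cell samples was hybridised to expression arrays, and the authors deposited normalized log-scale signals per probe set (the submitters' processing notes list RMA and Partek 6.6). No source used here states the log base, and the deposited values were taken as log2. The files' genome build is not given in the sources used here. Of 41345 probe sets, 23521 carried 1 gene symbol in the platform annotation, 1814 several and 16010 none; rows with 1 symbol were used, the brightest per gene. Members and lists were chosen with earlier results of these data known. Genes described were all members, and for each other list the 4 with the largest called differences in each direction. Genes with a highest group mean above 3.549 were tested with limma 3.58.1 in R 4.3.3 on 4 group means (12 residual degrees of freedom), with Benjamini-Hochberg adjustment over 16760 genes. Number of arrays limits the precision. The script was tested on simulated data. Same-numbered arrays of different groups had correlations of -0.0829 to 0.358 in their deviations and were not treated as pairs. Alternatives were quantile normalization, median centring, other filters, all rows of a gene, a trend in eBayes, only the groups compared, a replicate block and leaving out each array.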

Additional observations from a re-analysis of the deposited data

Results flagged for a closer look

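For the 46 measured members and for their mean, 188 groups of 4 arrays were checked for a lone array far from the other 3 by Dixon's criterion, and 8 had one; chance gives about 1 in 20 groups. In untreated Atg7+/- cells, replicate 1 was the high array for Kif11 (5.3915) and for Spc25 (4.3195), and replicate 2 the low array for Cdca5 (3.9396). In rapamycin Atg7+/- cells, replicate 3 was the high array for Kif23 (6.259) and replicate 1 for Top2a (6.3288). In rapamycin Atg7-/- cells, replicate 1 was the low array for Spc25 (3.9602), Hmmr (2.863) and Cdca5 (4.3595).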

How the results depend on the processing

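The counts of members called higher between untreated genotypes (22; 16 to 25 with 1 array left out, 19 to 26 under the other alternatives) and lower with rapamycin in Atg7-/- cells (20; 17 to 21, and 16 to 21) stayed within 1.5 times. Of these calls, 15 of 22 and 15 of 20 passed under every alternative. The smaller counts moved, and the cause was not tested. Under rapamycin the count of members higher in Atg7-/- cells was 2 and became 1 without a filter on dim genes, 1 with the replicate block, 0 with only the groups compared and 0 to 6 with 1 array left out. For rapamycin in Atg7+/- cells, the count higher was 2 and became 1 after quantile normalization, 1 with arrays centred on their medians, 3 with only the groups compared and 1 to 3 with 1 array left out. The count lower was 3 and became 2 with centred arrays, 2 with only the groups compared and 1 to 3 with 1 array left out. Between rapamycin Atg7-/- and untreated Atg7+/- cells, the count higher was 5 and ranged from 4 to 12 with 1 array left out. The count lower there was 1, became 0 with centred arrays and ranged from 0 to 2 with 1 array left out. With the replicate block 20 members were called higher between untreated genotypes and 20 lower with rapamycin in Atg7-/- cells. The labels do not say whether the numbers pair the samples. Array number and dim signal limit small differences, and Cdc25c and Hmmr could not be tested.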

Other observations

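Genes that act before mitosis were described by the same fit. Of the 8 tested G1 cyclins, their kinases and a phosphatase, 1 was called between untreated genotypes (12.5% higher, beside 1.75% of all genes). Cdk6, the kinase partner of the D cyclins, was higher in untreated Atg7-/- than Atg7+/- cells (0.48, SE 0.0989, adjusted p = 0.0116). It was also higher with rapamycin, with log2 differences of 0.62 (SE 0.0989, adjusted p = 0.000649) in Atg7+/- and 0.37 (SE 0.0989, adjusted p = 0.0142) in Atg7-/- cells. Cdc25a, the phosphatase that activates Cdk2, was lower with rapamycin in both genotypes (-0.97, SE 0.11, adjusted p = 4.25e-05 in Atg7+/- cells and -0.87, SE 0.11, adjusted p = 5.12e-05 in Atg7-/- cells), and under rapamycin it was higher in Atg7-/- cells (0.43, SE 0.11, adjusted p = 0.0413). With rapamycin 12.5% of the 8 were thus called in each direction in each genotype. Of all genes, 6.03% were called higher and 8.11% lower in Atg7+/- cells, and 8.83% and 11.1% in Atg7-/- cells. Between genotypes under rapamycin the share higher was 12.5%, beside 1.91% of all genes. Rapamycin Atg7-/- cells had a higher Cdk6 signal (0.85, SE 0.0989, adjusted p = 3.1e-05) and lower Cdc25a (-0.54, SE 0.11, adjusted p = 0.00265) and Cdk2 (-0.35, SE 0.115, adjusted p = 0.0438) signals than untreated Atg7+/- cells. Those are 12.5% higher and 25% lower, beside 9.02% and 8.56% of all genes.

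Of 9 genes that restrain the cell cycle, 2 were lower in untreated Atg7-/- cells and 0 higher (22.2% and 0%, beside 1.39% and 1.75% of all genes). They were the antiproliferative genes Btg1 (-0.56, SE 0.107, adjusted p = 0.00695) and Btg2 (-0.45, SE 0.117, adjusted p = 0.0439). At an unadjusted p under 0.05 in limma, 2 were higher and 5 lower, beside 1697 higher and 1213 lower of all 16760 genes. Btg1 was higher with rapamycin in Atg7-/- cells (0.47, SE 0.107, adjusted p = 0.00517), the 1 of the 9 called there (11.1%, beside 8.83% of all genes). Cdkn1a, which encodes the Cdk inhibitor p21, read 9.30 to 9.76 in untreated Atg7+/-, 9.10 to 9.28 in untreated Atg7-/-, 8.53 to 9.51 in rapamycin Atg7+/- and 8.13 to 9.33 in rapamycin Atg7-/- cells. It was lower in rapamycin Atg7-/- than untreated Atg7+/- cells (-0.90, SE 0.217, adjusted p = 0.00811), the 1 of the 9 called there (11.1%, beside 8.56% of all genes). In limma 0 of the 9 were called between genotypes under rapamycin (0 higher and 3 lower at an unadjusted p under 0.05) or with rapamycin in Atg7+/- cells (1 higher and 0 lower). Of all 16760 genes, 1923 were higher and 1144 lower at that unadjusted p in the former, and 2059 and 2809 in the latter.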
